A study of Mus musculus with 4 samples.

Results

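Day 10 embryoid bodies were set against day 3 embryoid bodies through the day 0 RNA that each had been hybridised with. The comparison takes in all 4 of the 4 arrays in the series, 2 labelled day 3 and 2 labelled day 10. Each array was centred on its median, the spots of a gene symbol were averaged, and the mean of the day 3 arrays was subtracted from the mean of the day 10 arrays. Of 14386 named genes, 12654 had a value on the 4 arrays and were compared, and the other 1732 lacked a value on at least 1 array.

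All samples come from CGR8, a line of mouse embryonic stem cells. The day 3 and day 10 samples are total RNA of embryoid bodies grown in hanging drops, and the other channel of every array holds RNA labelled day 0, undifferentiated. No genotype, agent or animal age is given beyond this, and the 1 cell line stands for each group. The second array of each day is labelled a technical replicate, so each day counts as 1 sample. Errors below are therefore technical, no p-value is given, and 4 arrays limit the precision of every value.

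Embryoid bodies are clumps of stem cells that begin to differentiate once they are no longer kept in the undifferentiated state. In their first days the cells pass through stages that resemble the epiblast and gastrulation, and later they hold patches of heart muscle, blood, vessel, endoderm and nerve cells. Genes for ribosomal proteins, translation and protein folding are used by all of these cells and mark growth rather than a lineage.

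A value is the log2 of the ratio of the 2 channels. The sources used here do not name the numerator channel, so the deposited sign was kept. A difference on the positive side means that the deposited log2 ratio was higher on the day 10 arrays than on the day 3 arrays, and a difference on the negative side that it was lower. It does not say on which day the RNA was more abundant, and all directions below are of this kind. That the day 0 RNA was the same, and that the ratio was taken the same way round, on the arrays of both days is assumed and not stated in the labels. Each day 10 array can be set against each day 3 array, and a gene was called where all 4 of these differences had the same sign and a log2 size of at least 1, which is 2-fold. By this rule the arrays of the days cannot overlap for a called gene, so that a lack of overlap is no further result. The SD given with a difference combines the SDs of both technical pairs. It was taken after the spots of a gene were averaged and so does not show how far these spots lay apart.

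By this rule 448 of 12654 genes were called, 230 on the positive side and 218 on the negative side, which is 3.54% of the genes, 1.82% positive and 1.72% negative. The genes of the negative side had median log2 ratios of 1.05 and 1.13 on the day 3 arrays and of -0.62 and -0.58 on the day 10 arrays. Those of the positive side had medians of -0.45 and -0.44 at day 3 and of 1.24 and 1.28 at day 10. The negative genes thus lay mostly away from 0 at day 3 and the positive genes mostly away from 0 at day 10. As a measure of error, 773 genes had array pairs with no array in common that lay beyond 2-fold with opposite signs. Between the technical pair, a single array had an SD of 0.60 at day 3 and 0.72 at day 10.

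**Figure D1:**
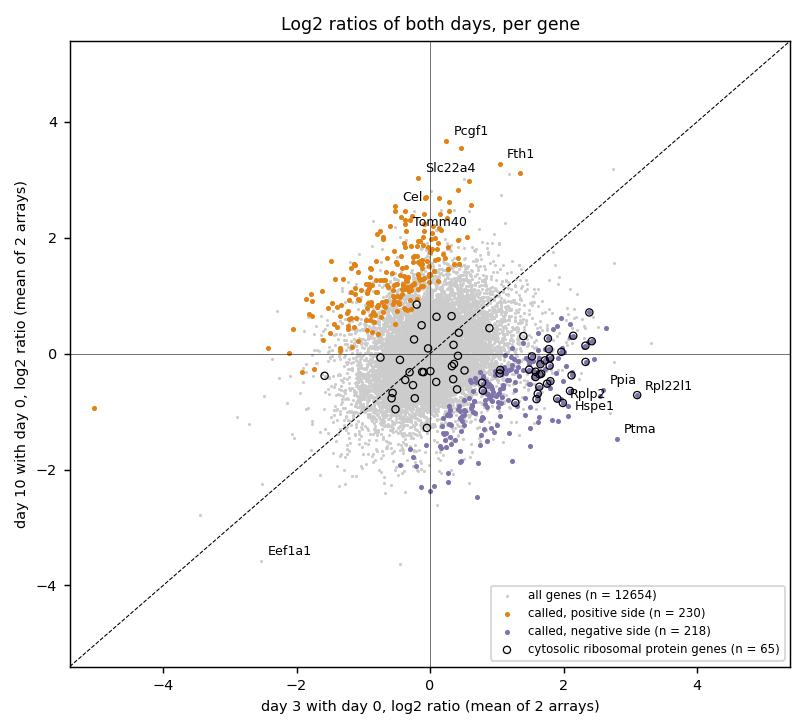
Mean log2 ratio of each gene with day 0 RNA at day 3 (horizontal axis) and day 10 (vertical axis), each a mean of 2 technical arrays. Grey points are all 12654 genes, coloured points the 230 genes called on the positive and the 218 on the negative side, open circles the 65 cytosolic ribosomal protein genes, and the dashed line marks equal ratios. The ribosomal protein genes spread to the right, where day 3 ratios are high and day 10 ratios lie near or below 0.

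Genes called on the negative side tended to have a higher estimated brightness than those of the positive side. Brightness was estimated from the pair of whole numbers, as small as possible, that reproduces a deposited value, so that a value with no ratio of small numbers ranks as bright. A gene's percentile of it is given where it bears on a value. The median percentile was 65.2 for the genes called on the negative side and 42.8 for those on the positive side. In the brightest 25% of genes, 82 of 3164 were on the negative side and 51 on the positive, and 12 had opposite array pairs. In the dimmest 25% the numbers were 44 negative and 68 positive of 3163 genes, and 400 genes had opposite pairs. Opposite pairs were thus most frequent where the estimated brightness was low. The estimate was not checked against channel intensities.

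Of the compared genes, 11619 have 2 spots and so up to 8 readings over the 4 arrays. Of these genes, 18.8% had day 3 and day 10 readings that did not overlap. Among the called genes with 2 spots the readings of the days were apart for 178 of 206 on the negative side and 188 of 224 on the positive side, which follows in part from how the genes were called.

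Among the 12 leading genes of the negative side, 5 encode ribosomal proteins and are described with their group further on. Ptma had log2 ratios of 2.74 and 2.85 on the day 3 arrays and of -1.85 and -1.09 on the day 10 arrays. Ptma encodes prothymosin alpha, a small acidic nuclear protein that binds histones. The difference was -4.26 ± 0.54. At day 3, Ppia read 2.62 and 2.56 (log2 ratios), and at day 10 -0.79 and -0.46. Ppia encodes cyclophilin A, an abundant prolyl isomerase, and differed by -3.21 ± 0.24, while the related Ppib had -0.89 ± 0.39 and was not called. Its day 3 readings ranged only from 2.55 to 2.62 over both spots and both arrays. Hspe1 gave log2 ratios of 2.02 and 2.10 at day 3 against -1.41 and -0.73 at day 10. Hspe1 encodes the small lid of the mitochondrial chaperonin and differed by -3.13 ± 0.48. Its arrays did not overlap between the days, but its single spots at day 10 ranged from -4.001 to 1.19. Hspd1, which encodes the large ring of the same chaperonin, had ratios of -0.58 and -1.13 at day 3 and of -0.69 and -0.52 at day 10, with overlapping days and a difference of 0.25 ± 0.41.

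For Tuba1b the day 3 arrays gave 1.93 and 1.74 and the day 10 arrays -0.73 and -1.54 (log2 ratios). Tuba1b encodes an alpha-tubulin of microtubules, and its difference of -2.97 ± 0.59 was the only call among 17 actin and tubulin genes. That is 5.88% of the list, against 3.54% of all genes. Its single spots at day 10 ranged from -1.93 to 0.46. The related Tuba1a differed by -1.27 ± 1.15 without passing the limit, Tuba1c by -0.08 ± 0.70 and Tuba4a by 0.59 ± 0.66. Foxn3 had log2 ratios of 0.19 and 0.35 on the day 3 arrays and of -2.30 and -2.14 on the day 10 arrays. Foxn3, a forkhead transcription factor gene, was near 0 on both day 3 arrays and away from 0 at day 10, with a difference of -2.49 ± 0.16. Its single spots at day 10 ranged from -3.42 to -0.86, and the spot whose technical arrays differed least gave -3.41. At day 3, Cabp1 read 0.04 and 1.35 (log2 ratios), and at day 10 -2.41 and -2.55. The calcium-binding protein gene Cabp1 differed by -3.18 ± 0.93, and its day 3 arrays lay far apart from each other. Apoc3 gave log2 ratios of 1.28 and 1.72 at day 3 against -1.35 and -1.22 at day 10. Apoc3, an apolipoprotein gene, differed by -2.79 ± 0.32 but had a brightness percentile of 7.42.

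On the positive side the leading genes encode proteins of various kinds. For Pcgf1 the day 3 arrays gave 0.50 and -0.01 and the day 10 arrays 3.64 and 3.71 (log2 ratios). Pcgf1 encodes a subunit of a Polycomb complex that modifies histone H2A, and its difference was 3.43 ± 0.37, at a brightness percentile of 10.9. It had only 6 readings and no spot with values on all 4 arrays, so its SD does not compare the same spots throughout. Slc22a4 had log2 ratios of -0.47 and 0.12 on the day 3 arrays and of 2.87 and 3.20 on the day 10 arrays. Slc22a4 encodes a carrier of organic cations, and the difference was 3.21 ± 0.48. At day 3, Cel read -0.54 and -0.50 (log2 ratios), and at day 10 2.28 and 2.80. Cel encodes a lipase of pancreatic juice and differed by 3.06 ± 0.37. For each of these genes the day 3 arrays lay much closer to 0 than the day 10 arrays.

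Tomm40 gave log2 ratios of -0.46 and -0.27 at day 3 against 2.23 and 2.001 at day 10. Tomm40 encodes the channel through which proteins enter mitochondria, and the difference was 2.48 ± 0.21. Tomm40 was the only call among 23 genes of mitochondrial protein import, or 4.35% of the list against 3.54% of all genes. In that list Tomm20 differed by -0.39 ± 0.29 and Tomm70a by -0.23 ± 0.20. For Trap1 the day 3 arrays gave -0.28 and 0.13 and the day 10 arrays 2.47 and 2.90 (log2 ratios). Trap1 encodes a chaperone of mitochondria related to Hsp90 and differed by 2.76 ± 0.42. Slc4a8 had log2 ratios of -0.30 and -0.23 on the day 3 arrays and of 2.19 and 2.56 on the day 10 arrays. Slc4a8 encodes a bicarbonate transporter and differed by 2.64 ± 0.26. These genes, too, lay close to 0 at day 3.

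Other genes of the positive side were away from 0 at day 3 as well. At day 3, Rbm12 read -1.85 and -1.77 (log2 ratios), and at day 10 0.60 and 0.77. The difference for this RNA-binding protein gene was 2.49 ± 0.13, but its single spots at day 3 ranged from -2.72 to -0.98. Scn3a gave log2 ratios of -1.94 and -1.30 at day 3 against 1.20 and 0.97 at day 10. Scn3a encodes a sodium channel of neurons and differed by 2.70 ± 0.48. For Klhl13 the day 3 arrays gave -1.41 and -2.16 and the day 10 arrays 0.86 and 1.21 (log2 ratios). Klhl13 encodes an adaptor of a ubiquitin ligase and differed by 2.82 ± 0.58, while its spot whose technical arrays differed least gave 4.23. Pkp4, a gene of cell junction plaques, differed by 2.79 ± 0.84, with day 3 arrays at -1.26 and -2.45. Its single spots at day 10 ranged from -0.53 to 2.40. All of these genes had brightness percentiles below 40, the highest being 38.1 for Klhl13. Nkx6-1, a homeobox gene of neural and pancreatic progenitors, and Usp9y, a Y-linked deubiquitinase gene, had percentiles of 98.3 and 82.3 and differed by 2.76 ± 0.51 and 2.83 ± 0.60. Both had only 6 readings, and Usp9y, like Pcgf1, had no spot with values on all 4 arrays.

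**Figure D2:**
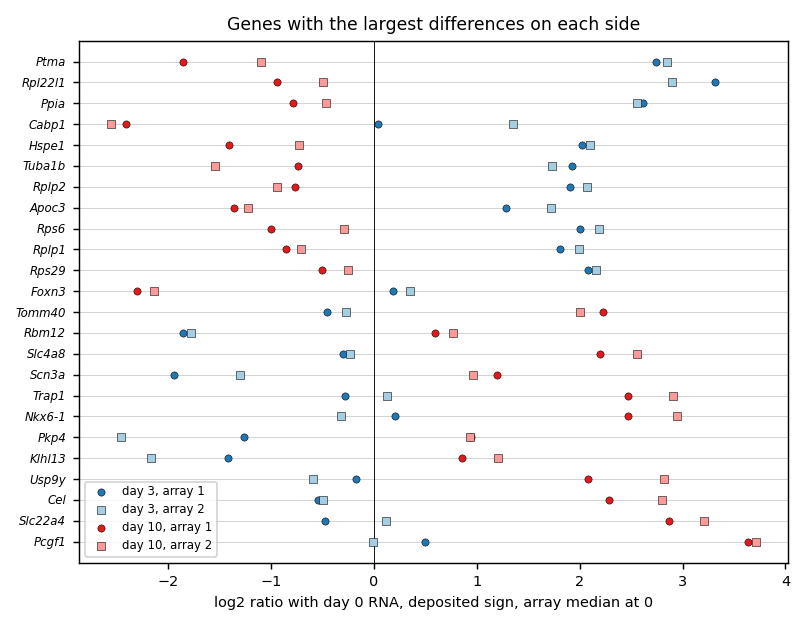
Log2 ratios with day 0 RNA on each of the 4 arrays for the 12 genes of each side whose smallest array difference was largest. Blue symbols are the day 3 arrays and red symbols the day 10 arrays, which cannot overlap for a called gene. Ptma, Rpl22l1 and Ppia reach beyond 2.5 at day 3 and are below 0 at day 10.

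Cytosolic ribosomal protein genes had the list medians farthest from 0 among the 38 lists. These proteins, with ribosomal RNA, form the large and small subunits that translate messenger RNA. Of 68 such genes on the array 65 had values on the 4 arrays. On the negative side 32 of them were called, against 1.72% of all genes, and none was called on the positive side. Their median difference was -1.33, with the middle 50% of the genes between -1.999 and -0.22, beside a median of -0.01 over all genes. All 4 array differences were below 0 for 44 of the 65 genes, against 22.7% of all genes. The genes account for 32 of the 218 negative calls, and the other 186 calls were outside the group.

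The large subunit had 21 of 41 measured genes on the negative side and a median difference of -1.39, and the small subunit 11 of 24 and -1.26. The subunits therefore gave nearly the same value. Array medians of the large subunit were 0.96 and 1.13 at day 3 and -0.37 and -0.30 at day 10. Those of the small subunit were 0.98, 1.25, -0.37 and -0.29 in the same order. Leaving out each array in turn kept the medians between -1.54 and -1.21 for the large and between -1.44 and -1.16 for the small subunit. The difference thus combined a distance above 0 at day 3 with a smaller distance below 0 at day 10.

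Rpl22l1 had log2 ratios of 3.31 and 2.90 on the day 3 arrays and of -0.94 and -0.49 on the day 10 arrays. Rpl22l1 is a paralog of the ribosomal protein gene Rpl22, and its difference of -3.82 ± 0.43 was the farthest from 0 in the group. Rpl22 itself had no value on the second day 10 array and was not compared. Its ratios were -0.42 and 0.84 at day 3 and -1.25 on the first day 10 array. The acidic stalk proteins, which recruit elongation factors to the ribosome, did not differ alike. At day 3, Rplp2 read 1.91 and 2.08 (log2 ratios), and at day 10 -0.77 and -0.94. Rplp1 gave log2 ratios of 1.81 and 1.997 at day 3 against -0.85 and -0.71 at day 10. Rplp2 and Rplp1 differed by -2.84 ± 0.17 and -2.68 ± 0.16. For Rplp0 the day 3 arrays gave -0.30 and -0.21 and the day 10 arrays -0.22 and -0.87 (log2 ratios). Rplp0, the base of the same stalk, differed by -0.29 ± 0.46, and its days overlapped.

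Rps6 had log2 ratios of 2.005 and 2.19 on the day 3 arrays and of -0.999 and -0.29 on the day 10 arrays. Rps6, whose protein is phosphorylated downstream of mTOR, differed by -2.74 ± 0.52. At day 3, Rps29 read 2.08 and 2.16 (log2 ratios), and at day 10 -0.50 and -0.25. Rps29 differed by -2.50 ± 0.19. Both genes were above 2 on each day 3 array and below 0 on each day 10 array. Rps4x, Rps7, Rps12, Rps23, Rps15, Rps24, Rps28, Rps19 and Rps3a1 were also called, with differences between -2.31 for Rps4x and -1.58 for Rps3a1. In the large subunit, Rpl26 differed by -2.47 ± 0.53, Rpl27 by -2.38 ± 0.31, Rpl19 by -2.27 ± 0.16 and Rpl30 by -2.21 ± 0.23, and the remaining called members lay between -2.19 for Rpl36al and -1.39 for Rpl7a. Near the limit, the array difference closest to 0 was -1.06 for Rpl9, which was called, and -0.93 for Rps14, which was not.

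The other 33 genes of the group ranged from -1.33 for Rpl37a to 1.20 for Rps27l. The value of Rps27l had an SD of 1.75, with day 3 arrays at -2.80 and -0.36. Besides Rpl22l1, the group also holds Rpl3l, Rpl7l1, Rpl39l and Rps27l, which are named as paralogs of ribosomal protein genes. All of these lay above 0 and were not called. Rps16 gave log2 ratios of -0.28 and -0.33 at day 3 against -0.30 and -0.34 at day 10. The days overlapped for Rps16, with a difference of -0.01 ± 0.04 and the tightest readings of the group. For Rpl3 the day 3 arrays gave -0.24 and -0.50 and the day 10 arrays -0.40 and -0.51 (log2 ratios). Rpl3 differed by -0.08 ± 0.20, Rpl8 by -0.20 ± 0.54, Rps25 by -0.46 ± 0.14 and Rpl13a by -0.54 ± 0.13. The brightness percentiles of these genes were 83.9 for Rps16, 89.8 for Rpl3, 74.0 for Rpl8, 98.8 for Rps25 and 96.0 for Rpl13a. Among the 44 group members in the brightest 25% of genes, 28 were called on the negative side, against 2.59% of all genes of that brightness, and their median difference was -1.73. Only Rps26 and Rpl12 had all 4 array differences above 0, with 0.48 ± 0.42 and 1.05 ± 0.69. Many ribosomal protein genes have pseudogene copies with near-identical sequence that a spot can share, so single values are uncertain. The probe sequences were not analysed here.

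**Figure D3:**
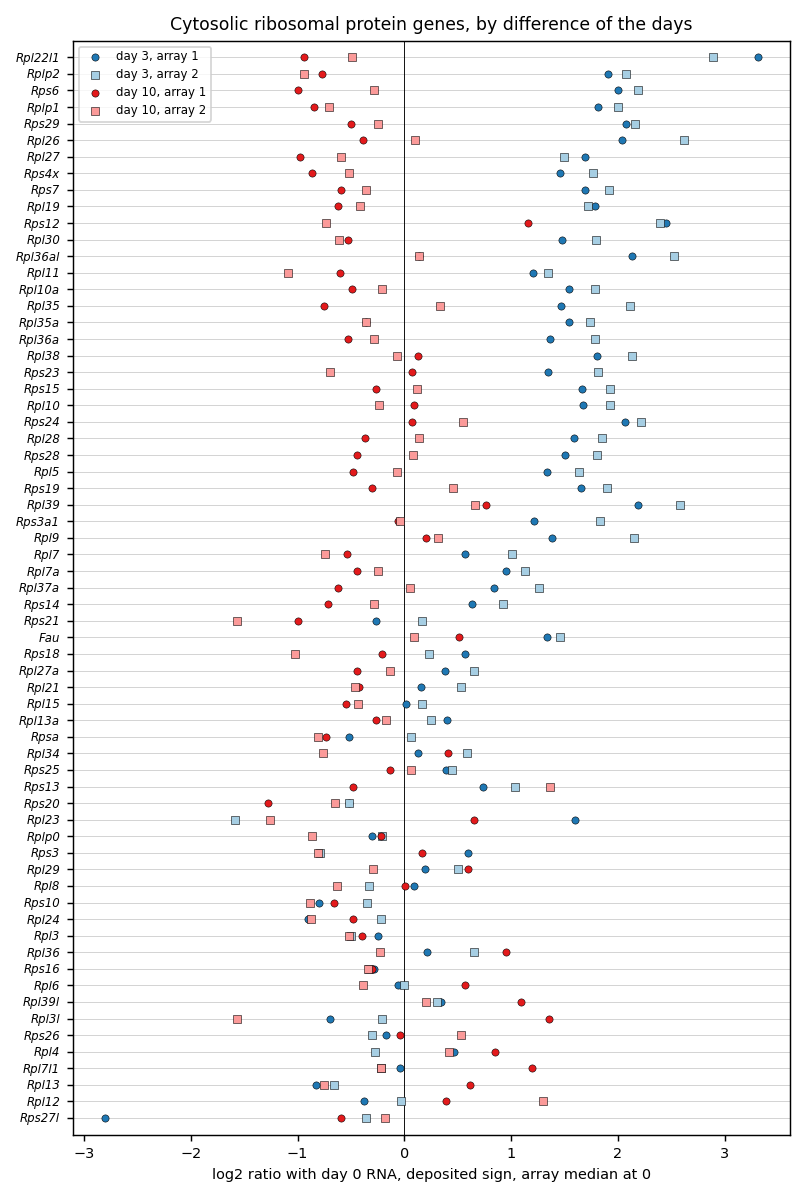
Log2 ratios with day 0 RNA of the 65 cytosolic ribosomal protein genes, in order of the difference between the days. Blue symbols are the 2 day 3 arrays and red symbols the 2 day 10 arrays. In the upper part the days stand apart, with day 3 above 1 for most genes, and from about Rpl34 downwards they overlap for most genes.

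Messenger RNAs of ribosomal proteins often begin with a C followed by a run of pyrimidines, and the bases around the transcription start are shown because many of these genes differed in the same direction. RefSeq start sites on build GRCm38.p6 were found for 54 of the 65 genes. Each line gives 15 bases before and 15 bases from the annotated start, 5′ to 3′ on the strand of the gene. Capitals mark the letters CTTTC or CTTCC within 10 bases of the start, which may overlap each other. The first 5 are the called ribosomal protein genes farthest from 0 with a single annotated start, the next 4 the uncalled ones nearest 0 above the 75th brightness percentile, likewise with a single start, and the last 3 are Ptma, Ppia and Hspe1, which led the negative side outside the group.
Rpl22l1: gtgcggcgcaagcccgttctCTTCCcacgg
Rplp2: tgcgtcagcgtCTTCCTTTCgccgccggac
Rps6: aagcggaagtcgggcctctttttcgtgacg
Rpl26: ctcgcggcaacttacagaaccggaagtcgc
Rpl27: acgctctgttcctgtctgctgctcgtgctg
Rps16: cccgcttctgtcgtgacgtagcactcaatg
Rpl6: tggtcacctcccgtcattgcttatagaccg
Rps13: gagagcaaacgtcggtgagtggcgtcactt
Rps25: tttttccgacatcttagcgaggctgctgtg
Ptma: cgggggactgcgcagcgcgcgccaagccga
Ppia: cggcgaggctcgtgccgctttgcagacgcc
Hspe1: tcgttCTTTCacctcggcggccggcctgga

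The windows lie, on GRCm38.p6, at chr3:28805493-28805522 for Rpl22l1 (plus strand), chr7:141447636-141447665 for Rplp2 (plus strand), chr4:86857353-86857382 for Rps6 (minus strand), chr11:68901551-68901580 for Rpl26 (plus strand), chr11:101442230-101442259 for Rpl27 (plus strand). Those of the uncalled genes lie at chr7:28350674-28350703 for Rps16 (plus strand), chr5:121204486-121204515 for Rpl6 (plus strand), chr7:116334176-116334205 for Rps13 (minus strand), chr9:44407699-44407728 for Rps25 (plus strand). The last 3 lie at chr1:86526542-86526571 for Ptma (plus strand), chr11:6415852-6415881 for Ppia (plus strand), chr1:55088133-55088162 for Hspe1 (plus strand). Of these 12 windows, those of Rpl22l1, Rplp2 and Hspe1 hold the letters searched for. The search did not require a C at the start or a run of pyrimidines after it. The Rps6 window has a C followed by pyrimidines at its annotated start but is not marked, and the Hspe1 mark lies before the start. The Rpl22l1 window has a G at its annotated start, and its mark lies after that start.

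CTTTC or CTTCC lay within 10 bases of a start on the gene's strand for 15 of 54 ribosomal protein genes (27.8%), against 7.74% of the 27025 genes of the RefSeq promoter table. Among the 9934 measured genes of that table the share was 8.42%. On the opposite strand the shares were 5.56%, 7.76% and 8.72% in the same order. The share was 9 of 28 among the called ribosomal protein genes and 6 of 26 among the uncalled. Among called genes outside the group it was 13 of 149 on the negative side and 11 of 185 on the positive side. The match describes letters in a short window on either side of the start. It does not count RNAs that begin with a C and a run of pyrimidines. The annotated start of a gene can also lie some bases from the one used in these cells.

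Other parts of the translation machinery had much smaller differences. Proteins of the mitochondrial ribosome, which translates the few genes of mitochondrial DNA, had a median of -0.18 over 65 genes. Only Mrps28, at -1.71 ± 0.51, and Mrps5, at -1.51 ± 0.24, were called there, both on the negative side. Initiation and elongation factors had a median of -0.25 over 53 genes. Their 2 calls were the negative Eif1ad, at -2.11 ± 0.62, and Eif2s3y, at -1.505 ± 0.50. The spot of Eif1ad whose technical arrays differed least gave -0.92. Against 3.54% of all genes, 3.08% of the mitochondrial ribosomal genes and 3.77% of the factors were called. All 4 array differences were below 0 for 22 of the 65 mitochondrial genes and above 0 for 9. Of the 53 factors, 21 had all below 0 and 6 all above. Over all genes the shares were 22.7% below and 20.7% above. With an array left out in turn, the mitochondrial median lay between -0.21 and -0.03 and that of the factors between -0.38 and -0.21.

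Eef1a1 had log2 ratios of -2.48 and -2.59 on the day 3 arrays and of -3.48 and -3.67 on the day 10 arrays. Eef1a1 encodes the factor that brings transfer RNA to the ribosome, and its ratios were low on all 4 arrays. Its difference was -1.04 ± 0.16, with array differences between -1.19 and -0.88, and it was not called. Bringing all arrays to a common spread left -0.51, and of its 4 spots the one whose technical arrays differed least gave -3.51, so its value depends on both choices. Its close relative Eef1a2, used in nerve and muscle, had -0.39 ± 0.24. Some further genes of protein synthesis and the nucleolus were chosen after their values were seen, and none of them was called. Tpt1 had -1.31 ± 0.46, Naca -1.35 ± 0.52, Eef1g -0.85 ± 0.28, Eef1b2 -0.88 ± 0.64 and Eef2 -0.74 ± 0.33, with all array differences below 0. Npm1, which encodes nucleophosmin of the nucleolus, lay on the other side at 1.85 ± 1.52 with all array differences above 0, and Ncl, which encodes nucleolin, had 0.32 ± 1.31. Factors that build ribosomes in the nucleolus had a median of 0.24 over 25 genes, whose sign turned in 2 of 10 alternatives. On the negative side stood Rrp9 at -2.02 ± 1.002, Nolc1 at -1.75 ± 0.33 and Imp4 at -1.57 ± 0.36, and on the positive side Bop1 at 1.46 ± 0.25. These 4 calls stand in 25 genes, against 3.54% of all genes.

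Chromatin proteins had a median of -0.62 over 18 genes of the list of histones and high mobility group proteins, with all 4 array differences below 0 for 11 and above 0 for none, against 22.7% and 20.7% of all genes. Leaving out each array in turn gave between -0.78 and -0.40. The calls were Ptma and Hmgn1, at -1.58 ± 0.44, which encodes a protein that loosens nucleosomes. The protein of Ptma binds histones but is neither a histone nor a high mobility group protein. This list, too, was chosen with earlier results known. Hmgb1, Hmgb2 and Hmgn2 differed by -0.40 ± 0.998, -0.15 ± 0.33 and -0.39 ± 0.44 without being called. The 2 calls are 11.1% of the list, against 3.54% of all genes, and most of its differences were below the limit.

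Splicing factors and hnRNPs had a median of -0.23 over 60 genes, with 3 calls on the negative and 1 on the positive side, which is 6.67% of the list against 3.54% of all genes. The calls were Snrpe, Snrpg, Hnrnph1 at -1.37 ± 0.30 and, on the positive side, Snrpc at 1.85 ± 0.52. Snrpe at -2.46 ± 0.43 and Snrpg at -1.95 ± 0.39 encode neighbouring proteins of the Sm ring that holds spliceosomal RNA. The other ring genes did not pass the limit, where Snrpf had -1.77 ± 1.44, Snrpd1 0.09 ± 0.44, Snrpd2 0.35 ± 0.54, Snrpd3 -0.08 ± 0.41 and Snrpb -0.15 ± 0.26. Chaperones and chaperonins had a median of 0.00016 over 78 genes with 5 negative calls and 1 positive, or 7.69% of the list, and its sign turned in 6 of 10 alternatives. Besides Ppia and Hspe1 the negative calls were Cct4, Dnajc22 and Hspb9, and the positive call was Dnajb3. Cct4 encodes 1 subunit of the cytosolic chaperonin ring and differed by -1.35 ± 0.15, while Tcp1 had -0.40 ± 0.62, Cct2 -0.36 ± 0.20, Cct3 -0.80 ± 0.41, Cct5 -0.60 ± 0.73, Cct6a 0.45 ± 0.42 and Cct8 1.02 ± 0.94, none of them called.

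In the lists of protein breakdown single genes were called, on both sides. Proteasome subunits had a median of -0.03 over 43 genes, with 1 call, Psmc4 at 1.76 ± 0.29, or 2.33% of the list against 3.54% of all genes. Enzymes that conjugate ubiquitin had 0.05 over 25 genes, with Ube2g1 at -2.20 ± 1.17 and Ube2h at 1.70 ± 0.46 on opposite sides, or 8.0% of the list. Without the first day 3 array the value of Ube2g1 was -1.38, and the spot of Ube2h whose technical arrays differed least gave 3.05. Lysosomal genes had 0.08 over 49 genes, with Glb1 at 1.996 ± 0.87, Atp6v1c1 at -1.61 ± 0.49 and Atp6v0d1 at 1.52 ± 0.50 called, or 6.12%. Autophagy genes had 0.01 over 20 genes and 1 call, Map1lc3b, whose 3.08 ± 1.74 rests on day 3 ratios of -2.71 and -0.27 and was 1.86 without the first day 3 array. That is 5.0% of the list. The medians of all 4 lists lay close to 0, well inside the middle 50% of all genes.

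Of the lists of energy metabolism, glycolysis, oxidative phosphorylation and sterol synthesis had 1 call each. That is 7.14%, 1.72% and 5.88% of these lists, against 3.54% of all genes. Glycolysis had a median of 0.24 over 14 genes, between 0.23 and 0.27 with each array left out and 0.05 with the choice of spot. Its sign turned in none of 10 alternatives. All array differences were above 0 for 4 of its genes and below 0 for none, against 20.7% and 22.7% of all genes. At day 3, Ldha read -1.05 and -0.83 (log2 ratios), and at day 10 1.17 and 0.93. Ldha, the enzyme that makes lactate in tissues with little oxygen, was called at 1.99 ± 0.23, while Ldhb had -0.50 ± 0.52. Pgk1 had 0.72 ± 0.21 and Gapdh, averaged over 464 spots, 0.24 ± 0.13, while the Gapdh spot whose technical arrays differed least gave 0.64. Subunits of oxidative phosphorylation had a median of -0.18 over 58 genes, with Ndufc1 of complex I at -2.35 ± 1.10 as the only call. Sterol synthesis had 0.21 over 17 genes with Stard4, a sterol carrier, at -3.08 ± 1.61, which was -1.95 without the first day 3 array. Antioxidant and metallothionein genes had 0.04 over 20 genes and no call.

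Among iron genes the call was Fth1, with log2 ratios of 0.87 and 1.22 at day 3 and of 3.001 and 3.56 at day 10. Fth1 encodes the ferritin heavy chain, which stores iron in a protein shell. The ratios were above 0 at both days and higher at day 10, with a difference of 2.24 ± 0.47. Ftl1, the light chain of that shell, had 1.22 ± 1.47 with day 10 arrays at 1.55 and -0.53. The list of 15 iron genes had a median of -0.29, opposite to Fth1, and between -0.12 and 0.08 with each array left out. Its 1 call is 6.67% of the list, against 3.54% of all genes.

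**Figure D4:**
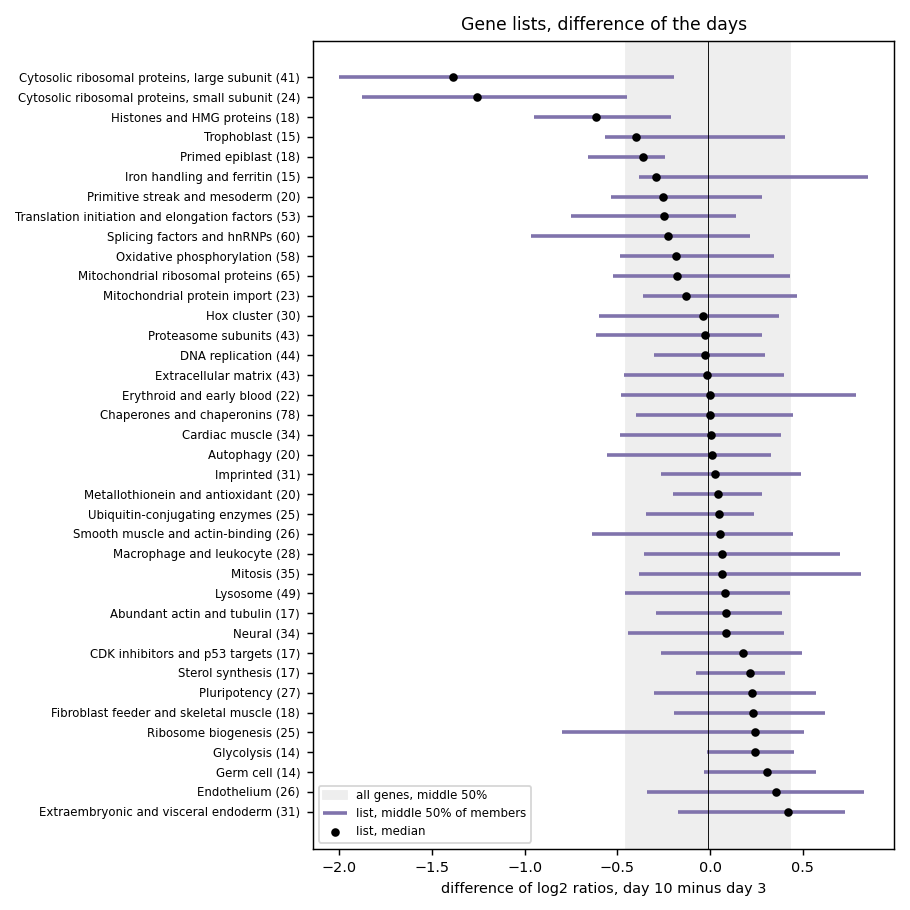
Difference of log2 ratios, day 10 minus day 3, for 38 gene lists with the number of measured genes in brackets. Points are list medians, bars the middle 50% of members, and the grey band the middle 50% of all 12654 genes, from -0.45 to 0.43. The large and small ribosomal subunits, at -1.39 and -1.26, and histones and high mobility group proteins, at -0.62, lie outside the band.

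Among genes of cell division, those of DNA replication had a median of -0.03 over 44 genes and no call, with Mcm2, a helicase subunit gene, at -0.28 ± 1.57. Mitosis genes had 0.07 over 35 genes with 2 calls on the positive side, Cdk1 at 1.87 ± 0.43, the kinase that starts mitosis, and Racgap1 at 2.13 ± 1.08, a regulator of the dividing spindle, which is 5.71% of the list against 3.54% of all genes. Without the second day 3 array the value of Racgap1 was 1.37. Cdk1 had a brightness percentile of 10.5. CDK inhibitors and p53 targets had 0.17 over 17 genes and no call. The sign of the replication and mitosis medians turned with an array left out, whereas that of the inhibitors did not.

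Pluripotency genes had a median difference of 0.23 over 27 measured genes, 0.27 at most and -0.11 at least with an array left out. In whole embryoid bodies fewer cells of a type and less RNA per cell cannot be told apart. For Pou5f1 the day 3 arrays gave -0.79 and -1.002 and the day 10 arrays -0.69 and -2.09 (log2 ratios). Zfp42 had log2 ratios of -0.77 and -0.79 on the day 3 arrays and of -0.68 and -0.43 on the day 10 arrays. The central factor Pou5f1 and the marker Zfp42 had ratios below 0 on all arrays of both days, and differed by -0.50 ± 1.001 and 0.23 ± 0.18. At day 3, Nanog read -0.74 and -0.22 (log2 ratios), and at day 10 0.15 and -0.59. The days overlapped for Nanog at 0.26 ± 0.64, and for Pou5f1 as well. Dppa5a gave log2 ratios of -2.74 and -2.69 at day 3 against 0.41 and -2.85 at day 10. Dppa5a, a gene of early germ and stem cells, was far below 0 on both day 3 arrays and on 1 day 10 array alone, which left a difference of 1.496 ± 2.30. Dppa4 had 0.42 ± 1.04. The called members, 7.41% of the list against 3.54% of all genes, were Fgf4 at 1.60 ± 0.41, a growth factor of the inner cell mass, and Sall4 at 1.29 ± 0.31, a zinc finger factor.

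The lists of later embryonic stages differed in sign. Primed epiblast genes had a median of -0.36 over 18 genes, between -0.48 and -0.21 with each array left out, and all 4 array differences lay below 0 for 8 genes and above 0 for 2, against 22.7% and 20.7% of all genes. The call was Crabp1, a retinoic acid binding protein, with ratios of 0.97 and 2.30 at day 3 and -0.06 and -0.09 at day 10, a difference of -1.71 ± 0.95 that was -1.04 without the second day 3 array. This call is 5.56% of the list, against 3.54% of all genes. Primitive streak and early mesoderm genes had -0.25 over 20 genes and no call. Hox genes had -0.04 over 30 genes with Hoxa2 called at -1.57 ± 0.58, or 3.33% of the list. The spot of Hoxa2 whose technical arrays differed least gave -0.82. Extraembryonic and visceral endoderm genes had a median of 0.42 over 31 genes, between 0.21 and 0.42 with each array left out, and 11 genes had all array differences above 0 and 3 below, again beside 20.7% and 22.7% of all genes. In the 4 genes of that list within the brightest 25% of genes the median was -0.05. The call was the keratin gene Krt19, or 3.23% of the list, at 1.37 ± 0.45 and a brightness percentile of 8.42, while Afp had -0.59 ± 0.87.

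In the heart and nerve lists no gene was called, and in the vessel and blood lists 1 on each side. These are 7.69% of the vessel list and 9.09% of the blood list, against 3.54% of all genes. The median of cardiac muscle genes was 0.0019 over 34 genes, and its sign turned in 9 of 10 alternatives. For Myh6 the day 3 arrays gave -0.49 and -0.37 and the day 10 arrays 0.06 and 0.26 (log2 ratios). Actc1 had log2 ratios of -0.50 and -0.27 on the day 3 arrays and of -0.38 and -0.36 on the day 10 arrays. Myh6, the heavy chain of atrial myosin, had 0.59 ± 0.17 with all day 10 arrays above those of day 3, and Actc1, cardiac actin, 0.01 ± 0.16 with overlapping days. Endothelial genes had 0.36 over 26 genes, but between 0.15 and 0.20 with each array left out. At day 3, Tie1 read 1.97 and 1.46 (log2 ratios), and at day 10 -0.32 and -0.21. Cldn5 gave log2 ratios of -0.23 and -0.12 at day 3 against 1.60 and 1.15 at day 10. Tie1, a receptor of vessel cells, was on the negative side at -1.98 ± 0.37, and Cldn5, a tight junction gene, on the positive side at 1.55 ± 0.33. Single spots of both genes overlapped between the days, and the spots whose technical arrays differed least gave -0.73 for Tie1 and 1.05 for Cldn5.

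For Hbb-bh1 the day 3 arrays gave -0.38 and -0.39 and the day 10 arrays 0.97 and 1.27 (log2 ratios). Hbb-bh1, a globin of the embryo's first red cells, was called at 1.498 ± 0.21, with the day 3 arrays nearly equal. It had only 6 readings, and its single spots at day 3 ranged from -0.93 to 0.17. Its sister gene Hbb-y had no value on the second day 3 array and was not compared, and its other ratios were 0.73 at day 3 and 1.29 and 0.58 at day 10. Lyl1, a transcription factor of blood progenitors, was on the negative side at -1.45 ± 0.10. It, too, had only 6 readings, and its single spots at day 3 ranged from -0.08 to 1.53. The list of 22 erythroid and early blood genes had a median of -0.0022, whose sign turned in 6 of 10 alternatives. The brightness percentiles of Hbb-bh1 and Lyl1 were 16.3 and 4.46. Neural genes had a median of 0.08 over 34 genes and no call, smooth muscle and actin-binding genes 0.05 over 26 genes and no call.

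Matrix genes had -0.02 over 43 genes, with the cartilage proteoglycan gene Acan at -1.77 ± 0.47 as the only call and Col1a1 at -0.26 ± 0.64. The call is 2.33% of the list, against 3.54% of all genes. The spot of Acan whose technical arrays differed least gave -0.44. Imprinted genes had 0.03 over 31 genes with 1 call on each side, or 6.45%. Igf2 had log2 ratios of 0.04 and -0.45 on the day 3 arrays and of -1.62 and -2.26 on the day 10 arrays. At day 3, Impact read -0.14 and -0.07 (log2 ratios), and at day 10 1.20 and 2.53. Igf2, a fetal growth factor, differed by -1.73 ± 0.57 at a brightness percentile of 9.88, and Impact, a regulator of translation under stress, by 1.97 ± 0.95 at 87.4. Without the second day 10 array the value of Impact was 1.31. Their days did not overlap, as the rule for a call requires.

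The 28 macrophage and leukocyte genes had a median difference of 0.06, with the T cell receptor gene Cd3e as the call at 4.09 ± 3.90, or 3.57% of the list against 3.54% of all genes. Its day 3 arrays read -7.79 and -2.27, and its value was 1.33 without the first and 6.85 without the second. Trophoblast, germ cell, and fibroblast and skeletal muscle genes held no call. Their medians were -0.40 over 15 genes, 0.30 over 14 and 0.23 over 18. With each array left out they lay between -0.39 and -0.02, between 0.16 and 0.39, and between -0.07 and 0.27, and the germ cell median was 0.0022 with the choice of spot. Because a ratio of channels gives no level, these markers do not show which cell types were present, and neither do those of stem cells.

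Called genes were not spread evenly over the value table. In 48 windows of 961 consecutive rows, chosen after the data were examined, the share of genes called on the positive side had a median of 1.58% and reached 6.65%, or 23 of 346 genes, in window 16. Windows 48, 30 and 17 followed with 11 of 230, 8 of 175 and 9 of 209 genes. In windows 16 and 48 the median of all spots lay above 0 on both day 10 arrays, at 0.09 and 0.18 in window 16 and at 0.12 and 0.21 in window 48, and below 0 on the day 3 arrays. The sources used here do not describe the layout of the slides, and the part of position in the results was not tested. Of the called genes described, Cldn5, Rplp1 and Rps6 lie in window 16, and Pcgf1 and Usp9y in window 30. Centring each window on its own median gave 216 positive and 212 negative calls, with 195 and 191 of those called before, and left Cldn5 at 1.38, Rplp1 at -2.85, Rps6 at -2.91, Pcgf1 at 3.43 and Usp9y at 2.83.

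**Figure D5:**
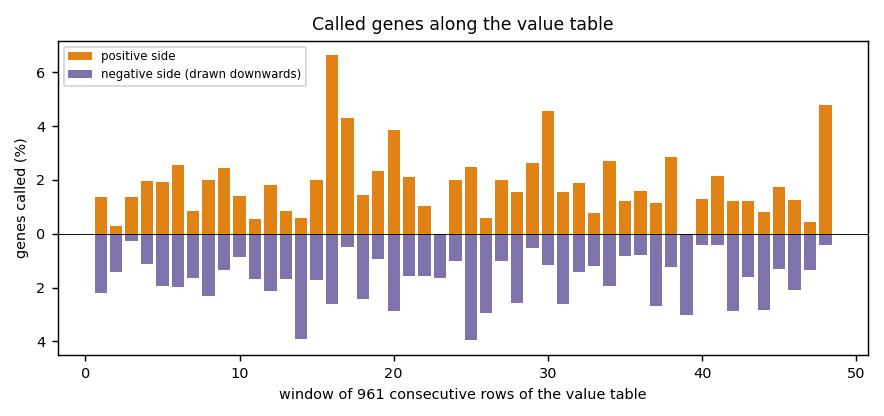
Percentage of compared genes called on the positive side (upwards) and on the negative side (downwards) in 48 windows of 961 consecutive rows of the value table, window 1 at the left. The highest bars of the positive side are those of windows 16, 48, 30 and 17, at 6.65%, 4.78%, 4.57% and 4.31%, against 1.82% over all genes.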

How the data were processed

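The deposited table holds 1 log2 ratio of the 2 channels per spot and array, per the labels and the values. Between 59.3% and 62.0% of an array's values equal the log2 of a ratio of whole numbers up to 10000 within 5.5e-10, and at most 1.64% do once 1e-05 is added to them. The sources used here do not give background treatment, dye correction or software. The 4 arrays have 46128 spots each, of which 37471 to 41386 carried a value. By GEO's platform annotation, its Entrez IDs matched to RefSeq's GRCm38.p6 gene table, 32544 spots have 1 gene symbol, 588 several and 12996 none. Left out were 480 spots of 5 accessions that were taken as controls. The rule was that an accession was spotted exactly 96 times and its Entrez ID was absent from that gene table.

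Members, gene lists and the rule for naming genes were chosen with earlier results of these data known. The rule takes, on each side, the 12 called genes with the largest smallest array difference (leaving out RIKEN, predicted and pseudogene names, at most 2 per symbol stem), 2 called members of each of 38 lists, and 15 genes followed throughout. Partners of called genes were added after their values were seen. No test was run, as each day is 1 RNA sample. Alternatives changed centring, spread, spots, limits, brightness and arrays. Python 3.11.15, numpy 2.4.6, pandas 2.3.3 and matplotlib 3.10.9 were used.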

Additional observations from a re-analysis of the deposited data

Results flagged for a closer look

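The ratios of Ptma and Apoc3 lay beyond 2-fold on opposite sides of 0 at the days, on both arrays of each, and among the genes named here no other did so. Ptma differed by -4.26 and Apoc3 by -2.79 (log2, day 10 minus day 3). Each day is 1 RNA sample, and the difference was not tested. Apoc3 had a brightness percentile of 7.42, and its single day 10 spots ranged from -2.54 to -0.16.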

How the results depend on the processing

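Of the 448 called genes (230 positive, 218 negative), a limit of 1.5-fold gave 1302 (634 and 668), a limit of 4-fold 45 (21 and 24) and the limit on the mean difference alone 2052 (1053 and 999). Counting each named spot gave 876 (410 and 466), and the brightest 25% of genes 133 (51 and 82, or 38.3% positive against 51.3%). With each array left out in turn, only 2 differences had to pass and the counts were 1261 to 1945, 667 to 911 on the positive and 594 to 1034 on the negative side. Taking for each gene the spot whose technical arrays differed least kept 128 of the positive and 147 of the negative genes. The large subunit's median of -1.39 was -1.25 with the brightness trend removed, -1.76 in the brightest 25% of genes and -1.54 to -1.21 with an array left out. The small subunit's -1.26 was -1.70 in the brightest 25% and -1.44 to -1.16 with an array left out. Of 38 list medians 15 kept their sign in all alternatives, and 17 with each array left out. Of 619 values for the 70 named genes, no called gene changed sign and 21 moved by more than their technical SD. Centring windows of the value table was chosen after seeing the data. The cause of these changes was not tested. No paired analysis was possible because the labels do not tie a day 3 array to a day 10 array. Technical error at low estimated brightness limits the values too, since 400 of the 773 genes with opposite array pairs were in the dimmest 25%.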

Other observations

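Some features named for other genes had readings like those of the ribosomal protein genes, and were picked after their values were seen. Gm6607, a predicted gene, had log2 ratios of 2.59 and 2.50 at day 3 and of -1.11 and -0.36 at day 10. Hba-ps3, an alpha-globin pseudogene, had 2.05 and 2.10 at day 3 and -1.12 and -0.67 at day 10. Ran, the small GTPase of nuclear transport, had 1.60 and 1.63 at day 3 and -2.04 and -0.33 at day 10, and differed by -2.80 ± 1.21. For each of these features the days did not overlap, as the rule for a call requires.

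Among genes of the Y chromosome, also chosen after their values were seen, only Usp9y and Eif2s3y were called, beside 3.54% of all genes. Usp9y, which had no spot with values on every array, differed by 2.83 ± 0.60 and Eif2s3y by -1.50 ± 0.50. Kdm5d, Zfy1 and Zfy2 differed by 0.71 ± 0.21, -0.36 ± 0.22 and -0.88 ± 0.27 without a call. Also uncalled were Orly, Sry, Ssty2, Tspy-ps, Uba1y, Uba1y-ps2 and Uty, with differences above 0, and Rhoay-ps3 and Ssty1, with differences below 0.

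Spots with no gene name, or with several, held calls too. Of 7593 such spots with values on the 4 arrays, 197 were called positive and 175 negative, or 4.90%, against 4.42% of 19818 spots with 1 gene name.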
